A study of Mus musculus with 7 samples.

Results

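The lysyl oxidase family of the mouse consists of Lox and its homologs Loxl1, Loxl2, Loxl3 and Loxl4, and these 5 genes were taken by their symbols from a table of 18145 genes measured in neural stem cells. All 5 passed the filter on low values, as did 18134 genes of the whole table. RNA was sequenced from cultured neural stem cells, which divide and can form neurons and glia, at the first passage. The cells were 2 lines labelled Tet-TFoCa (TFoCa), 2 lines labelled Tet-TMut (TMut) and 3 wild-type lines (WT), with 1 library a line. No treatment, age, strain or sex is given in the labels, and neither is the allele or promoter behind each mutant genotype. The series is about the oxidised forms of methylcytosine that TET enzymes make in steps (hydroxymethyl-, formyl- and carboxylcytosine). Which of these forms each mutant line lacks or keeps is not in the labels.

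Lysyl oxidases are secreted copper enzymes that oxidise lysine side chains of collagen and elastin to reactive aldehydes, which then join neighbouring chains into covalent crosslinks. Lox and Loxl1 carry a propeptide that is removed outside the cell by proteases of the BMP1 group, and Loxl1 is best known for its role in elastic fibres. Loxl2, Loxl3 and Loxl4 carry scavenger receptor domains instead, and Loxl2 also acts on collagen IV of basement membranes. In the brain the extracellular matrix is poor in fibrillar collagen, and these enzymes are known mainly from vessels, meninges and scar tissue.

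The members share the catalytic domain at the C terminus, in which 3 histidines spaced by single residues bind the copper ion. The coding sequence around these histidines is shown because it is the part that makes each gene a lysyl oxidase. The 3 histidine codons are in capitals, and each stretch of 51 bases is read 5′ to 3′ from the GENCODE M21 transcript with the longest coding sequence (GRCm38).
Loxl1: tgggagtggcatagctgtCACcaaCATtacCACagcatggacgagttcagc
Loxl2: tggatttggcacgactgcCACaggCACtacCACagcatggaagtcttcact
Loxl3: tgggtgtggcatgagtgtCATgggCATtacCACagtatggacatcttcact
Loxl4: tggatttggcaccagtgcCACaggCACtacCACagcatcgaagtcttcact
Each stretch is exonic and crosses a junction of exons, so its genomic span includes an intron. The spans are chr9:58293702-58294381 on the minus strand for Loxl1, chr14:69682316-69689055 on the plus strand for Loxl2, chr6:83049995-83050143 on the plus strand for Loxl3 and chr19:42598789-42599899 on the minus strand for Loxl4. Loxl2 and Loxl4 were alike at 48 of the 51 bases, whereas Loxl1 and Loxl4 were alike at 33. Over whole transcripts the members were distinct. No word of 31 bases was shared between any 2 of them except 2 words shared by Lox and Loxl1, so reads of that length or more can be told apart between members almost everywhere.

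Libraries held between 33340167 and 62545457 reads in genes, and values below are counts normalized by the authors for library size. As a check of the labelled cell type, 11 of 11 neural stem cell markers were measured, and their summed level was 158137 and 167440 in TFoCa, 132173 and 157313 in TMut, and 184113 to 189612 in WT. Vimentin, which mesenchymal cells also make, holds much of that sum and is also in a list used below. Leaving out markers shared with those lists was chosen after the values were seen. Without vimentin the sum was 73225 and 78804 in TFoCa, 30917 and 43652 in TMut, and 118556 to 120958 in WT, and 9 of these 10 markers fell in TMut and 2 in TFoCa. Rising and falling here mean called by limma against WT (adjusted p under 0.05) unless another comparison is named. Over all tested genes, 5.25% were called higher and 3.52% lower in TFoCa, and 18.4% higher and 20.4% lower in TMut. Sox2, a transcription factor of neural progenitors named after its values were seen, had normalized counts of 11738 and 14882 in TFoCa, 6546 and 6298 in TMut, and 17594, 22162 and 19998 in WT. The summed level of the labelled markers was thus below WT in both mutant genotypes, and lowest in TMut.

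Markers of other cells also moved with genotype. Their counts stand against the same shares of all tested genes, which in TMut against TFoCa were 17.3% called higher and 18.5% lower. The 12 measured fibroblast or mesenchymal markers (of 14 listed) summed to 375664 and 433723 in TFoCa, 216912 and 300830 in TMut, and 150638 to 163961 in WT, with 9 rising and 0 falling in TFoCa and 5 rising and 3 falling in TMut against WT. Of the 12, 7 are matrix or transition genes that the lists below hold too. The other 5, a split made after the values were seen, summed to 27212 and 31440 in TFoCa, 7304 and 13976 in TMut, and 12097 to 14048 in WT, with 3 rising and 0 falling in TFoCa and 0 rising and 2 falling in TMut. The whole list thus summed higher than WT in both genotypes, and these 5 markers in TFoCa alone. The 10 smooth muscle or pericyte markers summed to 24978 and 28783 in TFoCa, 39393 and 44989 in TMut, and 15467 to 16742 in WT, with 4 rising and 0 falling in TFoCa and 5 rising and 1 falling in TMut. The 10 pluripotent cell markers summed to 1213 and 1553 in TFoCa, 13465 and 49762 in TMut, and 14624 to 29775 in WT. All 10 fell in TFoCa against WT, 1 rose and 1 fell in TMut against WT, and all 10 were higher in TMut than in TFoCa. Of 9 epithelial markers, 1 rose and 1 fell in TFoCa and 4 rose and 0 fell in TMut against WT, and 7 were higher and 0 lower in TMut than in TFoCa. Of 10 neuron markers, 0 rose and 1 fell in TFoCa and 0 rose and 9 fell in TMut. Of 6 measured skeletal muscle markers (of 9 listed), 4 rose and 0 fell in TFoCa and 0 rose and 0 fell in TMut by limma.

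No measured marker of these lists was at 0 in all libraries of a genotype, and the 9 macrophage or microglia markers were not analysed here. The part of these cells in the results below was not tested, and in bulk RNA fewer cells of a type and less RNA per cell cannot be told apart. RNA of Tet1 and Tet3 passed limma's test in no comparison. Tet2 was lower in TMut than in TFoCa (log2 fold change -1.07 ± 0.28 SE, limma adjusted p = 0.0229), and so was Tdg, a glycosylase that removes some of the oxidised bases (-0.36 ± 0.10, limma adjusted p = 0.0231). Tdg was also lower in TMut than in WT (-0.66 ± 0.09, limma adjusted p = 0.00114).

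**Figure D1:**
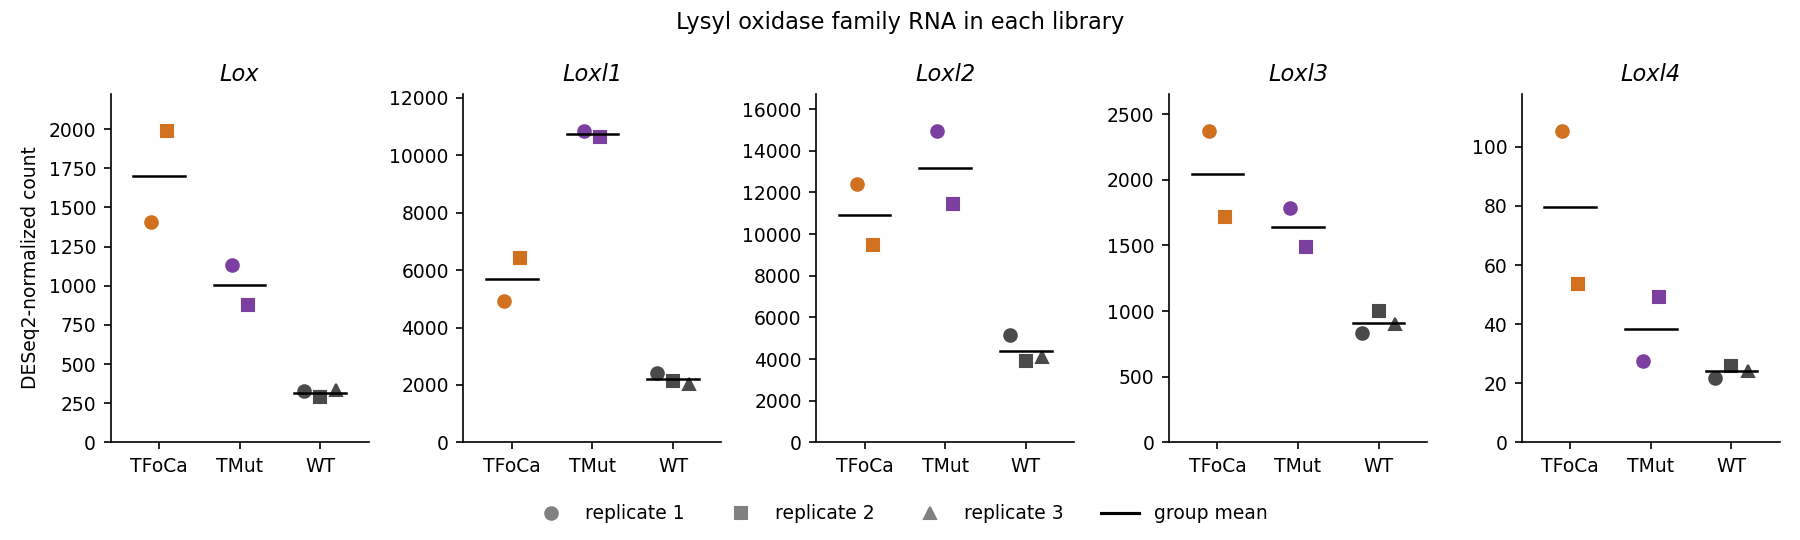
DESeq2-normalized count of each lysyl oxidase gene (vertical axes from 0, one panel a gene) in the TFoCa, TMut and WT libraries; points are libraries, shaped by replicate number, and lines are group means. Every mutant library lies above every WT library for each of the 5 genes, from 1410.0 and 1988.8 in TFoCa against at most 333.6 in WT for Lox to 27.6 and 49.2 in TMut against at most 26.0 in WT for Loxl4. Of all tested genes, 21.0% lay above WT in this way in TFoCa and 33.4% in TMut.

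Lox, the founding member, had normalized counts of 1410.0 and 1988.8 in TFoCa, 1133.4 and 878.8 in TMut, and 325.6, 289.7 and 333.6 in WT. The 3 genotypes did not overlap, with TFoCa highest and WT lowest, as the plot of members by library shows. The share of all genes without overlap is given below for each pair of genotypes. Loxl1, the elastic fibre enzyme, had 4933.9 and 6436.2 in TFoCa, 10842.2 and 10645.5 in TMut, and 2430.4, 2138.0 and 2021.2 in WT. Its genotypes did not overlap either, but here TMut was highest, and the TMut lines were close to each other (coefficient of variation 1.29%).

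Loxl2 had the most reads, with 12413.8 and 9463.2 in TFoCa, 14950.7 and 11434.3 in TMut, and 5143.3, 3889.4 and 4119.5 in WT. The TMut and TFoCa libraries overlapped, and all 4 lay above WT. Loxl3, which is needed for palate and spine development in the mouse, had 2371.7 and 1718.6 in TFoCa, 1783.0 and 1489.9 in TMut, and 833.9, 1003.4 and 899.6 in WT. Again TMut and TFoCa overlapped above WT. Loxl4 was the least abundant, with 105.4 and 53.6 in TFoCa, 27.6 and 49.2 in TMut, and 22.0, 26.0 and 24.2 in WT. Its TMut line of replicate 1 lay just above the highest WT line. The spread between lines was wider in TFoCa than in WT, with coefficients of variation of 18.7% to 46.1% across the 5 genes in TFoCa, 1.29% to 39.7% in TMut and 7.40% to 15.2% in WT.

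How TFoCa lines differ from WT in these enzymes was asked first. Of the 5 members 4 rose and 0 fell, since 4 passed limma's test (adjusted p under 0.05 over all tested genes), where 8.77% of all tested genes were called in either direction and 5.25% were called higher. Lox rose 5.29-fold (95% interval 3.88 to 7.21; log2 fold change 2.40 ± 0.19 SE, limma adjusted p = 0.00193), and only 0.849% of tested genes had a higher fold change. Loxl1 rose 2.57-fold (2.07 to 3.20; adjusted p by limma = 0.0029), Loxl2 2.49-fold (1.86 to 3.33; adjusted p by limma = 0.00751) and Loxl3 2.22-fold (1.69 to 2.91; adjusted p by limma = 0.00957). Fold changes are on the log2(value + 1) scale, which understates them slightly for low genes. Loxl4 did not pass, at 3.05-fold with an interval of 1.5 to 6.18 (limma adjusted p = 0.0622). Without TFoCa replicate 2 it was called (log2 fold change 2.09, limma adjusted p = 0.0457). When TFoCa replicate 1 was left out instead, its log2 fold change was 1.13 (limma adjusted p = 0.199). All libraries of TFoCa exceeded all of WT for each of the 5 members, as they did for 21.0% of all tested genes.

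In TMut against WT, Lox, Loxl1, Loxl2 and Loxl3 rose and 0 members fell, where 38.8% of all tested genes were called, 18.4% higher and 20.4% lower. Loxl1 led here, with a 4.90-fold rise (3.94 to 6.10; log2 fold change 2.29 ± 0.14 SE, limma adjusted p = 7.37e-05). Lox rose 3.16-fold (2.32 to 4.30; adjusted p by limma = 0.000639), Loxl2 by 1.59 log2 units (1.17 to 2.01; adjusted p by limma = 0.000593) and Loxl3 1.79-fold (1.36 to 2.35; adjusted p by limma = 0.0066). Loxl4 did not pass, at 1.52-fold with an interval of 0.749 to 3.08 (limma adjusted p = 0.311), and its log2 fold change was 1.01 without TMut replicate 1 but 0.20 without TMut replicate 2. All TMut libraries exceeded all WT libraries for each member, as they did for 33.4% of tested genes, while 33.6% lay below WT in this way. This comparison and the one before share the WT libraries, so their rises are not independent of each other.

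**Figure D2:**
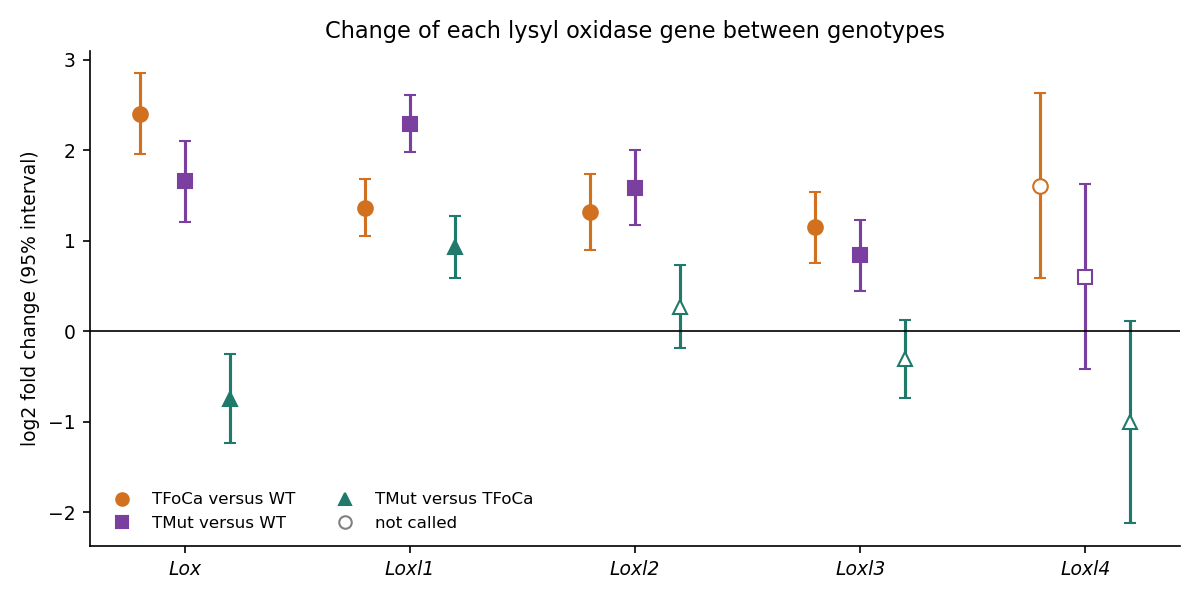
Log2 fold change of each lysyl oxidase gene with its 95% interval (vertical axis) for both mutants against WT and for TMut against TFoCa; filled symbols passed limma's test at an adjusted p under 0.05 and open symbols did not. Lox rose more in TFoCa (2.40) and Loxl1 more in TMut (2.29), and their TMut versus TFoCa changes have opposite signs (-0.75 for Lox, 0.93 for Loxl1).

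Set directly against each other, the mutant genotypes differed in 2 members and in opposite directions, where 35.8% of tested genes were called, 17.3% higher and 18.5% lower. For a family of this size, 2 called members are close to the share of all genes. Loxl1 was 1.91-fold higher in TMut than in TFoCa (1.5 to 2.42; log2 fold change 0.93 ± 0.15 SE, limma adjusted p = 0.00406). Lox was lower in TMut, at 0.596 of its TFoCa level (0.425 to 0.837; log2 fold change -0.75 ± 0.21 SE, limma adjusted p = 0.0287). The call of Lox was lost without TFoCa replicate 2 (-0.50, limma adjusted p = 0.112) or TMut replicate 2 (-0.56, limma adjusted p = 0.153). A fit without the WT libraries lost it too (limma adjusted p = 0.0768). The other members did not pass. The ratio of TMut to TFoCa was 1.21 for Loxl2 (0.878 to 1.66), 0.807 for Loxl3 (0.599 to 1.09) and 0.498 for Loxl4 (0.230 to 1.08). Groups did not overlap for Lox and Loxl4, both lower, and for Loxl1, higher, against 33.5% of tested genes lower and 33.9% higher in this way. Taking both directions together, the members were not above the share of all genes here.

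Levels of different members can be compared only per length of transcript. On the scale of reads per kilobase of exon scaled to the reads in genes of each library (RPKM), the family summed to 118.7 and 112.2 in TFoCa, 160.8 and 138.0 in TMut, and 49.6, 42.4 and 42.0 in WT. Loxl2 and Loxl1 made up most of it in every library. Loxl2 was first in all 3 WT libraries, with 45.6% ± 2.79 of the family's length-corrected reads (SD, n = 3), ahead of Loxl1 with 37.6% ± 0.954. In TMut the order was turned round in both libraries, with Loxl1 at 51.8% ± 4.13 and Loxl2 at 38.5% ± 3.71 (SD, n = 2). The 2 TFoCa libraries disagreed, since Loxl2 led in replicate 1 (48.9% against 31.9% for Loxl1) and Loxl1 led in replicate 2 (42.9% against 38.5% for Loxl2). The order of Loxl1 and Loxl2 in TFoCa is thus within the spread between lines. Below them came Loxl3, then Lox, then Loxl4 in all 7 libraries on this scale. Lengths were all exons of a gene joined, 5405 bases for Loxl2 and 3297 for Loxl1, where the coding lengths were 2331 and 1824. The order of members can change with the length used, and which length fits the RNA of these cells was not tested.

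Lox held 6.29% and 9.14% of the family's length-corrected reads in TFoCa, 3.52% and 3.11% in TMut, and 3.47% to 4.18% in WT. Its share was higher in both TFoCa libraries than in any other library. Loxl3 held 12.3% and 9.21% in TFoCa, 6.46% and 6.16% in TMut, and 10.3% to 14.6% in WT, so that its share was lowest in TMut although its level was above WT there. Loxl4 was at 0.353 and 0.712 RPKM in TFoCa, 0.176 and 0.308 in TMut, and 0.148 to 0.175 in WT. These shares are descriptions and were not tested.

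**Figure D3:**
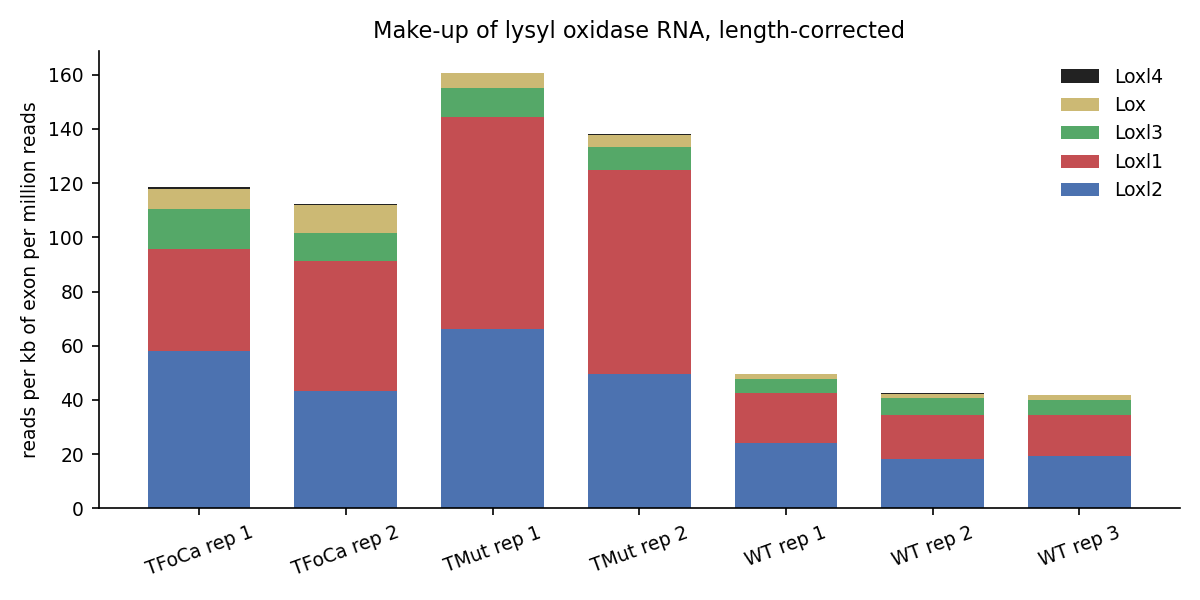
Reads per kilobase of exon scaled to library depth, RPKM (vertical axis, from 0) of the 5 lysyl oxidase genes, stacked for each TFoCa, TMut and WT library. The stacks reach 112.2 to 160.8 in mutant libraries and 42.0 to 49.6 in WT libraries, and the Loxl1 segment is larger than the Loxl2 segment in both TMut libraries.

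The genes around the family were grouped by role into 10 lists, of which 125 of 127 genes were tested. In TFoCa against WT 36 of them rose and 4 fell (32.0%, against 8.77% of all genes), and in TMut against WT 57 rose and 17 fell (59.2%, against 38.8% of all genes). In TMut against TFoCa 27 rose and 26 fell (42.4%, against 35.8% of all genes). The counts of each list below stand against these same shares of all genes. The median log2 fold change over the 125 genes was 0.47, 0.59 and 0.04 in these comparisons, and over all tested genes it was -0.0191, 0.00222 and -0.00191. Their count of 40 in TFoCa became 26 without WT replicate 1 or 3 and 25 without WT replicate 2. That of 53 in TMut against TFoCa became 23 without TMut replicate 2.

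The substrates of the enzymes are the fibrillar collagens and elastin. Of 12 fibrillar collagen and elastin genes, 3 rose and 0 fell in TFoCa against WT, while 3 rose and 4 fell in TMut against WT, and 0 rose and 5 fell in TMut against TFoCa. Col3a1, which encodes type III collagen, rose in TFoCa (log2 fold change 1.24 ± 0.14, limma adjusted p = 0.00384) and in TMut (1.08 ± 0.14, limma adjusted p = 0.00102). Eln, which encodes elastin, had 276.8 and 277.5 normalized counts in TFoCa, 41.5 and 69.6 in TMut, and 138.9, 163.5 and 157.6 in WT. It fell in TMut against WT (-1.49 ± 0.28, limma adjusted p = 0.00506) and against TFoCa (-2.34 ± 0.31, limma adjusted p = 0.00236), and did not pass in TFoCa against WT (0.85, limma adjusted p = 0.104).

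Col1a1, the main chain of type I collagen, had 85789 and 97393 normalized counts in TFoCa, 35453 and 19191 in TMut, and 42183, 44222 and 42318 in WT. It was lower in TMut than in TFoCa (-1.81 ± 0.25, limma adjusted p = 0.00279). Col1a2, the partner chain, rose in TFoCa against WT (1.91 ± 0.36, limma adjusted p = 0.019). The call of Col1a2 was lost without any 1 of the WT libraries or TFoCa replicate 2 (limma adjusted p from 0.058 to 0.0681). The other genes that fell in TMut against WT, named after their values were seen, were Col1a1 (-0.72), Col5a2 (-1.39) and Col24a1 (-1.96), and each of these 3 lost its call without WT replicate 3 or TMut replicate 2. Col1a1 and Col24a1 lost their calls there without any 1 WT library, and Col24a1 also without TMut replicate 1. The TFoCa count of 3 became 1 when any 1 WT library was dropped and 6 when TFoCa replicate 1 was. The TMut count of 7 became 3 after dropping WT replicate 2, 2 after dropping WT replicate 3, and 4 after dropping either TMut library. Col1a1 was the remaining called gene in TFoCa (1.09 ± 0.23, limma adjusted p = 0.0286), and it lost its call without any 1 of the WT or TFoCa libraries (limma adjusted p from 0.0544 to 0.0945).

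Of 5 tested collagen IV genes, the basement membrane chains that Loxl2 can crosslink, 0 rose and 0 fell in TFoCa against WT by limma, where edgeR and DESeq2 also called 0 and 0 had an unadjusted p under 0.05. The smallest adjusted p there belonged to Col4a4 (0.43 ± 0.48, limma adjusted p = 0.62) and Col4a6 (0.18 ± 0.20, limma adjusted p = 0.632). In TMut 0 rose and 3 fell against WT, and 0 rose and 4 fell against TFoCa. Col4a1 fell in TMut against WT (-0.72 ± 0.14, limma adjusted p = 0.00584), as did Col4a5 (-0.58 ± 0.12, limma adjusted p = 0.0079). Against TFoCa they were lower by 0.73 ± 0.15 and 0.66 ± 0.13 log2 units (limma adjusted p = 0.0101 and 0.00896). The last count of 4 became 2 without WT replicate 2 and 1 without TMut replicate 2, where Col4a1 also lost its call (limma adjusted p = 0.0577).

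The next list holds proteases and enhancers that mature the enzymes and their substrates. Of its 8 genes, 1 rose and 0 fell in TFoCa against WT, 4 rose and 2 fell in TMut against WT, and 4 rose and 2 fell in TMut against TFoCa. Bmp1, the protease that releases the Lox propeptide, had 9721 and 5125 normalized counts in TFoCa, 15777 and 19682 in TMut, and 4756, 4228 and 4289 in WT. It rose in TMut against WT (2.00 ± 0.24, limma adjusted p = 0.000818) and against TFoCa (1.32 ± 0.27, limma adjusted p = 0.00888). The second of these calls was lost without TMut replicate 2 (limma adjusted p = 0.057), where the list count of 6 became 2. Adamts14, a procollagen protease, rose in TMut against WT by 3.19 ± 0.16 log2 units (limma adjusted p = 4.65e-05) and in TFoCa by 0.91 ± 0.16 (limma adjusted p = 0.014). It was 2.28 ± 0.17 log2 units higher in TMut than in TFoCa (limma adjusted p = 0.00116). The rise in TFoCa lost its call without WT replicate 1 (limma adjusted p = 0.0502) or WT replicate 3 (limma adjusted p = 0.054), which left 0 genes of the list called. The TFoCa count was 2 when TFoCa replicate 1 was dropped and 5 when replicate 2 was. Tll1, a protease of the same group as Bmp1, did not pass in TFoCa (1.62 ± 0.45, limma adjusted p = 0.0668) but was called without TFoCa replicate 2 (limma adjusted p = 0.0213).

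Other matrix proteins bind the enzymes or present them to their substrates. Of 13, 8 rose and 0 fell in TFoCa against WT, 8 rose and 1 fell in TMut against WT, and 3 rose and 3 fell in TMut against TFoCa. Fn1, fibronectin, which binds Lox, rose by 1.76 ± 0.12 log2 units in TFoCa (limma adjusted p = 0.00124) and by 2.11 ± 0.12 in TMut (limma adjusted p = 7.11e-05). Fbn2, a microfibril protein, rose in TFoCa (1.83 ± 0.14, limma adjusted p = 0.00163) and in TMut (1.32 ± 0.14, limma adjusted p = 0.00046). Thbs1, thrombospondin 1, had 6015 and 4545 normalized counts in TFoCa, 15182 and 16379.5 in TMut, and 1963, 2028 and 2088 in WT, and rose in TMut against WT (2.96 ± 0.13, limma adjusted p = 4.34e-05) and TFoCa (1.59 ± 0.14, limma adjusted p = 0.00144). Fbln2, a fibulin of elastic fibres, was lower in TMut than in TFoCa (-2.30 ± 0.41, limma adjusted p = 0.0058). The count in TMut against TFoCa became 2 without TMut replicate 2.

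Enzymes and chaperones that hydroxylate and fold procollagen, and so prepare the lysines that are later oxidised, formed a list of 18. Of these, 8 rose and 0 fell in TFoCa against WT, 12 rose and 0 fell in TMut against WT, and 3 rose and 2 fell in TMut against TFoCa. In TMut against TFoCa the called share was below the 35.8% of all tested genes. Fkbp10, a prolyl isomerase of collagen folding, had 7244 and 7534 normalized counts in TFoCa, 7638 and 6835 in TMut, and 2900, 2911 and 3105 in WT. It rose by 1.31 ± 0.09 log2 units in TFoCa (limma adjusted p = 0.00124) and 1.28 ± 0.09 in TMut (limma adjusted p = 0.000139). P3h4, a partner of the lysyl hydroxylases, rose by 1.15 ± 0.10 in TFoCa (limma adjusted p = 0.00212) and 1.37 ± 0.10 in TMut (limma adjusted p = 0.000147). In TMut against TFoCa, Crtap, a subunit of the prolyl hydroxylation complex, was higher (1.11 ± 0.14, limma adjusted p = 0.00216) and Colgalt2, which adds galactose to hydroxylysine, was lower (-1.62 ± 0.30, limma adjusted p = 0.00624). The count in TFoCa became 5 without WT replicate 2 or WT replicate 3, and that in TMut against TFoCa became 3 without TMut replicate 2.

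Lysyl oxidases need copper, and copper handling genes formed a list of 15. Of these, 1 rose and 2 fell in TFoCa against WT, 5 rose and 2 fell in TMut against WT, and 6 rose and 4 fell in TMut against TFoCa. Atox1, the chaperone that hands copper to the secretory pathway pumps, had 1186 and 1199 normalized counts in TFoCa, 2845 and 3069 in TMut, and 1304, 1107 and 995.1 in WT. It rose in TMut against WT (1.39 ± 0.13, limma adjusted p = 0.000327) and TFoCa (1.31 ± 0.15, limma adjusted p = 0.00173). Ccs, the copper chaperone of superoxide dismutase, rose in TMut by 1.03 ± 0.13 against WT (limma adjusted p = 0.000836) and 1.10 ± 0.14 against TFoCa (limma adjusted p = 0.00218). Atp7a, the pump that loads lysyl oxidases with copper, was named after its values were seen. It passed in neither genotype against WT (0.56 in TFoCa, limma adjusted p = 0.0627, and -0.24 in TMut, limma adjusted p = 0.253), and it was lower in TMut than in TFoCa (-0.80 ± 0.17, limma adjusted p = 0.0102). That call was lost without TMut replicate 2 (limma adjusted p = 0.0515). Steap2, a metalloreductase, rose in TFoCa (0.91 ± 0.16, limma adjusted p = 0.0156), and Mt2, a metallothionein, fell (-3.07 ± 0.56, limma adjusted p = 0.0173). Steap2 lost its call without WT replicate 2 or TFoCa replicate 1, and Mt2 lost it without any 1 WT library or TFoCa replicate 1 (limma adjusted p from 0.0508 to 0.0651 over both genes). The TFoCa count of 3 became 1 without WT replicate 1 or 3, and 0 without WT replicate 2 or TFoCa replicate 1. The count in TMut against TFoCa became 5 without TMut replicate 2.

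**Figure D4:**
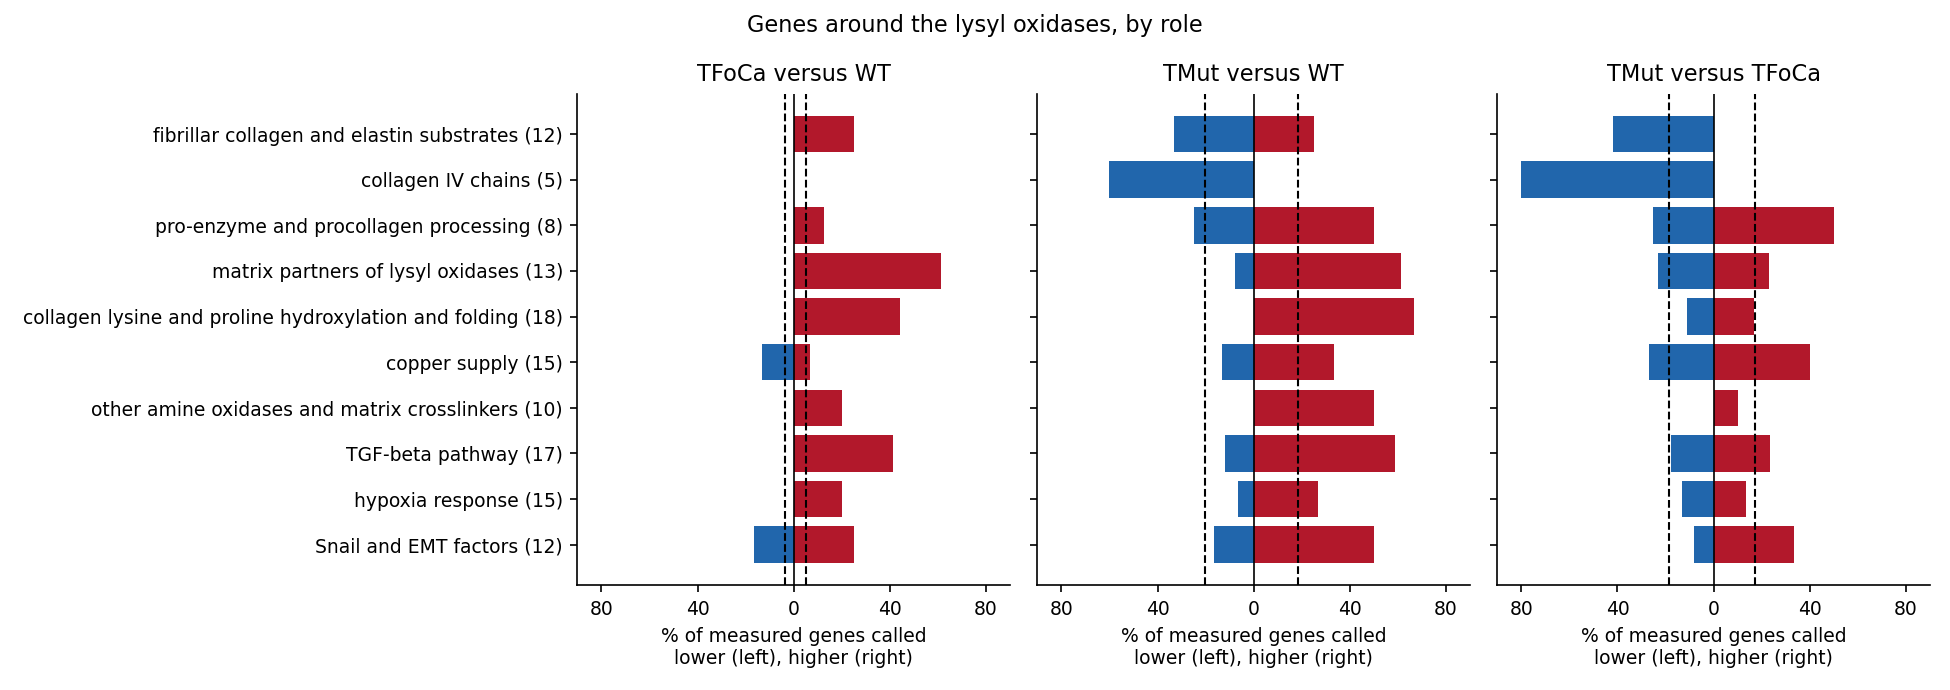
Share of the measured genes of each role list (rows, number measured in brackets) called higher (right) or lower (left) by limma at an adjusted p under 0.05, in percent, in each of the 3 comparisons; dashed lines give the share of all tested genes called in that direction. Hydroxylation and folding genes were called higher only (8 and 12 of 18) against WT, and collagen IV genes were called lower only (3 and 4 of 5) in both TMut comparisons.

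Of 10 tested genes for other enzymes that oxidise amines or crosslink matrix, 2 rose and 0 fell in TFoCa against WT, 5 rose and 0 fell in TMut against WT, and 1 rose and 0 fell in TMut against TFoCa. In TMut against TFoCa the called share was below the 35.8% of all tested genes. Tgm2, tissue transglutaminase, which crosslinks glutamine to lysine, rose by 1.24 ± 0.17 log2 units in TFoCa (limma adjusted p = 0.00725) and 1.40 ± 0.17 in TMut (limma adjusted p = 0.000725). Pxdn, peroxidasin, which crosslinks collagen IV, rose by 0.72 ± 0.14 in TFoCa (limma adjusted p = 0.0203) and 0.81 ± 0.14 in TMut (limma adjusted p = 0.00321). In TFoCa Pxdn lost its call without any 1 WT library (limma adjusted p from 0.0626 to 0.0801), which left 1 gene called. Tgm1, another transglutaminase, was higher in TMut than in TFoCa (2.59 ± 0.55, limma adjusted p = 0.0103), a call lost without TMut replicate 2 (limma adjusted p = 0.0616). Aoc3, a membrane amine oxidase, did not pass there (1.40 ± 0.48, limma adjusted p = 0.0544), but was called without TFoCa replicate 2 (1.97, limma adjusted p = 0.0216). The TMut count of 5 became 2 without WT replicate 1, WT replicate 3 or TMut replicate 2, and that in TMut against TFoCa became 2 without TFoCa replicate 2 and 0 without TMut replicate 2.

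TGF-beta, hypoxia and Snail factors are known inducers or partners of lysyl oxidases. Of 17 TGF-beta pathway genes, 7 rose and 0 fell in TFoCa against WT, 10 rose and 2 fell in TMut against WT, and 4 rose and 3 fell in TMut against TFoCa. Tgfb2, a ligand, rose in TFoCa (1.47 ± 0.14, limma adjusted p = 0.00242), as did its receptor gene Tgfbr2 (1.40 ± 0.13, limma adjusted p = 0.00253). In TMut against WT, Tgfb2 (1.015 ± 0.14, limma adjusted p = 0.00123) and Tgfbr2 (1.51 ± 0.13, limma adjusted p = 0.00024) rose too. Tgfb1, the best known ligand, rose in TFoCa (1.645 ± 0.16, limma adjusted p = 0.0029) and in TMut (2.00 ± 0.16, limma adjusted p = 0.000197) against WT. Ccn2, a target of the pathway, was higher in TMut than in TFoCa (1.13 ± 0.23, limma adjusted p = 0.00924), a call lost without TMut replicate 2 (limma adjusted p = 0.0563). The count of 7 in TMut against TFoCa became 3 without WT replicate 2 or TMut replicate 1, 4 without WT replicate 3 and 1 without TMut replicate 2.

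Of 15 hypoxia response genes, 3 rose and 0 fell in TFoCa against WT, 4 rose and 1 fell in TMut against WT, and 2 rose and 2 fell in TMut against TFoCa. Over all tested genes 8.77%, 38.8% and 35.8% were called in either direction. In neither TMut comparison was the called share of this list above that of all genes. Adm, which encodes adrenomedullin, rose in TFoCa (1.77 ± 0.26, limma adjusted p = 0.00945) and in TMut (1.17 ± 0.26, limma adjusted p = 0.00994). Without TMut replicate 1 its rise in TMut lost its call, at a log2 fold change of 0.94. Car9, a carbonic anhydrase, rose in TFoCa (1.65 ± 0.25, limma adjusted p = 0.00996) and in TMut (2.17 ± 0.25, limma adjusted p = 0.000593). Vegfa, the vascular growth factor, had 18534.5 and 16616 normalized counts in TFoCa, 6389 and 5176 in TMut, and 9486, 17841 and 16911 in WT. WT replicate 1 was well below the other two, and Vegfa was lower in TMut than in WT (-1.30 ± 0.26, limma adjusted p = 0.00649) and than in TFoCa (-1.61 ± 0.29, limma adjusted p = 0.00563), and the first call was lost without TMut replicate 2 (limma adjusted p = 0.0509). Epas1, a hypoxia-inducible factor subunit, was higher in TMut than in TFoCa (1.81 ± 0.33, limma adjusted p = 0.00632). The TMut count of 5 became 3 without either TMut library, and that in TMut against TFoCa became 2 without TFoCa replicate 1 or TMut replicate 2.

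Of 12 Snail and epithelial-mesenchymal transition genes, 3 rose and 2 fell in TFoCa against WT, 6 rose and 2 fell in TMut against WT, and 4 rose and 1 fell in TMut against TFoCa. The list also holds the epithelial genes Cdh1 and Esrp1, so its counts do not give 1 direction of transition. Cdh1 was among those that rose in TMut against WT, and both were among those higher in TMut than in TFoCa. Esrp1, named after its values were seen, was among those that fell in TFoCa. The calls of Esrp1, and that of Cdh1 against WT, were lost in some fits without 1 library. Snai2 had 463.6 and 343.2 normalized counts in TFoCa, 754.4 and 946.1 in TMut, and 100.4, 109.7 and 101.2 in WT. It rose by 1.93 ± 0.21 log2 units in TFoCa (limma adjusted p = 0.00346) and 3.01 ± 0.21 in TMut (limma adjusted p = 0.000128). Snai1, whose protein binds Loxl2 and Loxl3, was named after its values were seen and did not pass in TFoCa (0.61, limma adjusted p = 0.085) or in TMut (0.53, limma adjusted p = 0.0591). Twist1 and Prrx1, both mesenchymal transcription factors, rose in both genotypes against WT. Twist1 rose by 1.31 ± 0.19 in TFoCa (limma adjusted p = 0.0084) and 1.25 ± 0.19 in TMut (limma adjusted p = 0.00182). Prrx1 rose by 1.52 ± 0.25 in TFoCa (limma adjusted p = 0.0129) and 2.18 ± 0.25 in TMut (limma adjusted p = 0.000634). Its call in TFoCa was lost without WT replicate 2 (limma adjusted p = 0.0532). Cdh1, the epithelial cadherin, had 788.3 and 849.6 normalized counts in TFoCa, 2498 and 7139 in TMut, and 1287, 2467 and 1714 in WT. It was higher in TMut than in TFoCa (2.37 ± 0.47, limma adjusted p = 0.00801), where 7 of 9 epithelial markers, Cdh1 among them, and 10 of 10 pluripotent cell markers were higher too, and the part of such cells was not tested. Snai3 was at 0 in both TFoCa libraries and at 48.4 and 153.7 in TMut, which is at least 62.8-fold higher when both TFoCa libraries together are set to a floor of 3 reads (limma adjusted p = 0.00317). The TFoCa count of 5 became 3 without WT replicate 1 or TFoCa replicate 2 and 2 without WT replicate 2, and that in TMut against TFoCa became 2 without TMut replicate 2.

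The genes whose pattern over the 7 libraries was most like that of each member were ranked by Pearson correlation of log2 values among 13197 genes (13198 for Loxl4) with a mean normalized count of 100 or more. The points share genotype, so the values describe these libraries and say nothing of shared function. For Lox they were Lhfpl2 (r = 0.992), Sema3d (r = 0.990) and D930048N14Rik (r = 0.990). Sema3d, a secreted guidance cue, averaged 491.4 normalized counts in TFoCa, 283.3 in TMut and 114.1 in WT, the same order as Lox. For Loxl1 they were Trim7 (r = 0.997), Six2 (r = 0.996) and Gprc5c (r = 0.996). Six2, a homeobox factor, averaged 1105 in TFoCa, 3851 in TMut and 239 in WT, the same order as Loxl1.

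For Loxl2 the closest genes were Zfp703 (r = 0.994), Lrrk1 (r = 0.994) and Dubr (r = 0.993). For Loxl3 they were Cd40 (r = 0.994), Dsc2 (r = 0.991) and Lman1 (r = 0.989), of which Cd40, a receptor of the tumour necrosis factor family, averaged 529.3 in TFoCa, 399.2 in TMut and 166.9 in WT. For Loxl4 they were Igdcc4 (r = 0.987), Pcnx (r = 0.983) and Glis2 (r = 0.979). Igdcc4 averaged 5047 in TFoCa, 4156 in TMut and 3727 in WT, a narrower range than that of Loxl4.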

How the data were processed

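RNA from 7 libraries of mouse neural stem cells, 1 for each line, was sequenced. Per the submitters' processing notes, reads were handled with DESeq2, featureCounts, SAMtools, STAR (2.7.3a) and Trim Galore (0.6.5), listed without order, on build mm39. Settings, strandedness and annotation are not given in the sources used here. The deposited values are a signal, namely gene counts that the authors divided by each library's DESeq2 size factor. Multiplying back gave whole reads for 100% of values (within 0.001 read). Among counts of 1 to 20, even numbers made up 70.3% to 79.3%, so a fragment may have been counted by both its reads, and count models would then overstate precision.

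The filter kept genes reaching a normalized count of 10 in 2 libraries, which left 18134 to test. To log2(value + 1), limma 3.58.1 (R 4.3.3) with an intensity trend was applied in a single fit to all 3 genotypes with no replicate block. Called means an adjusted p (Benjamini-Hochberg) under 0.05, and errors are SE unless named. The p-values measure the spread between lines, pooled over the 3 genotypes and moderated with that of other genes. Tests of TFoCa thus draw partly on the WT lines, which spread less in the lysyl oxidase genes. Whether lines came from separate animals is not stated. Exon lengths and coding sequences came from GENCODE M21 on GRCm38, which differs from the deposited table's build.

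On simulated data with 18078 genes, 100 genes were changed by 1 log2 unit and 100 by 2 for each mutant against WT. For TFoCa against WT limma found 54% and 82% of them (54 and 82 genes), with 18 false calls. For TMut against WT it found 52% and 83% (52 and 83 genes), with 13 false calls. For TMut against TFoCa, with 200 changed genes of each size, it found 54.5% and 85% (109 and 170 genes), with 18. In each comparison the false calls were a larger share of all calls than the adjusted p cutoff. Far more genes were called in the data (1590, 7043 and 6491 in the same order), and rates at such numbers of changes were not tested. Libraries sharing a replicate number were not treated as pairs, because their deviations from group means had correlations from 0.0192 to 0.185.

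The members and gene lists were chosen with earlier results of these data known. Named are all members, the 2 genes per list and comparison with the smallest adjusted p, the 3 genes most like each member, the TET genes and Tdg. The text says where another gene was picked after its values were seen. A gene that the rule names is not reported here. Alternatives covered pseudocounts, filters, scalings, other tests (limma-voom, DESeq2 1.42.0 and edgeR 4.0.16, all on whole reads), fits to 2 genotypes, a replicate block and dropping each library.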

Additional observations from a re-analysis of the deposited data

How the results depend on the processing

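The rises of Lox, Loxl1, Loxl2 and Loxl3 in TFoCa and in TMut against WT kept their direction and call under all 19 alternatives (12 settings and 7 left-out libraries), with the highest adjusted p at 0.0496 for Loxl3 in TFoCa under limma. The count of members called was 4 to 5 in TFoCa and 4 in TMut over these alternatives. In TMut against TFoCa the 2 called members became 1 in a fit to these genotypes alone, 1 with the replicate block, and 1 to 2 over left-out libraries, and the cause was not tested. Loxl1 kept its call there under all 19. Loxl4 in TFoCa against WT was called by edgeR (1.75, adjusted p = 0.0462) and DESeq2 (1.73, adjusted p = 0.0115), and its reads are few. It fell below the filter at a mean of 50 or more and has no value there. Pathway genes called in TFoCa against WT numbered 67 by DESeq2, 24 with the replicate block and 25 to 49 over left-out libraries, against 40. In TMut against TFoCa they numbered 29 in the 2-genotype fit and 23 to 52 over left-out libraries, against 53. In TMut against WT they numbered 52 to 83 over all alternatives, against 74. Under the replicate block, TFoCa against WT also lost the calls of Col1a2, Adamts14, Steap2, Pxdn and Car9 (adjusted p by limma from 0.0602 to 0.071), and the hypoxia count of 3 became 1. Mt2 lost its call in TFoCa against WT under limma-voom (log2 fold change -3.11, limma-voom adjusted p = 0.0667). Over all genes, calls in TFoCa against WT numbered 2947 by DESeq2, 555 with the replicate block, and 734, 495 and 638 without WT replicates 1, 2 and 3, against 1590. In TMut against WT they numbered 4620 with the replicate block and 4329 without TMut replicate 2, against 7043. In TMut against TFoCa they numbered 3419 in the 2-genotype fit and 3164 without TMut replicate 2, against 6491. Leaving out 1 of 2 libraries assumes that the lone one varies like the other genotypes.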
